A study of Mus musculus with 4 samples.

Results

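Type I interferon-stimulated antiviral genes were described in mouse T helper 17 cells, as a set of 39 genes named by symbol out of 50600 gene records per library. All 39 were matched. The set holds the receptor subunits, the sensors of viral nucleic acid and the effectors of the antiviral state. The rule uses gene names and no level measured in these libraries, but the members were chosen with earlier results of these data known.

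The cells were primary cells of strain C57BL/6NJ, labelled as T-helper 17, the interleukin 17 producing class of CD4 T cells. The 4 libraries form 1 group, numbered as biological replicates 1 to 4. No interferon treatment, control group, age or sex is stated, and every file is tagged 2 hours in its header, with no event to count from. The labels give 4 biosamples and 1 donor identifier. Separate animals or cultures are not mentioned, so SDs and p-values measure the spread between these libraries, of which an unknown share may be technical. The assay is called total RNA-seq, and the linked library protocol is named for polyadenylated RNA.

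The 4 libraries held 25847970 to 40652146 fragment counts. Levels are given in TPM, the count divided by exon length and scaled to the same sum in each library. T cell markers stood high (3 of 3 above 1 TPM), with Trac at 3565 ± 251 TPM (SD, n = 4). Of 6 Th17 markers 4 averaged at least 1 TPM, and the means ran from 0.132 TPM (Il23r, on 11 counts) to 12.4 TPM (Il17f), with Il17a at 5.65 ± 1.199 TPM. Il17f stood at 10.2, 7.04, 11.7 and 20.8 TPM in replicates 1 to 4 and varied between libraries beyond the abundance trend (edgeR, adjusted p = 0.017). Of 6 markers of plasmacytoid dendritic cells, a main interferon-producing cell, none had a mean of 1 TPM (Ccr9 reached 1.08 TPM in replicate 3) and 4, Siglech among them, had 0 counts. The summed level of those 6 was 0.627 to 1.46 TPM per library. Markers of macrophages and monocytes (0 of 5 at a mean of 1 TPM, summed 0.749 to 1.42 TPM), conventional dendritic cells (1 of 5, summed 0.832 to 2.23 TPM), B cells (1 of 4, summed 0.392 to 1.86 TPM) and NK cells (0 of 3, summed at most 0.0370 TPM) were likewise low. Sex-linked genes set replicates 3 and 4 apart from replicates 1 and 2: Xist stood at 0.791, 0.602, 142 and 76.5 TPM and the Y-linked Ddx3y at 305, 213, 0.914 and 1.39 TPM in replicates 1 to 4, so the libraries that share 1 donor identifier did not all come from 1 animal.

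Type I interferons (the alpha and beta interferons) bind a receptor of 2 chains, encoded by Ifnar1 and Ifnar2, and signal through the kinases Jak1 and Tyk2. These phosphorylate transcription factors, among them Stat2, which join Irf9 and bind a DNA element called the interferon-stimulated response element (ISRE). The genes so induced block virus entry, copying, translation and release. Many of them are also transcribed at a low, tonic level in unstimulated lymphocytes.

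The letters of that element were searched in the promoters of the members. Its core (GAAA, any 2 bases, GAAA) was looked for on both strands in RefSeq windows of the GRCm38.p6 assembly (the mm10 build of the files), each running from 250 bases before to 50 after a gene start. Of the 39 members 30 had a window, and 13 of these 30 (43.3%) held the core, against 1079 of 27025 genes with a window (3.99%). Of the 13, 7 held 2 or more matches. The gamma-activated sequence TTCNNNGAA was found in 8 of 30 members (26.7%) and in 9.55% of all genes. It overlapped a match to the ISRE core in 2 member windows. A match is a run of letters and says nothing of whether the site is bound in these cells.

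Windows of 6 members are printed because these 6 genes had an unadjusted p under 0.05 for differences between libraries (given with the variation between libraries), and because Ifit3 and Ifit3b have nearly the same promoter. Capitals mark matches to the core, which reads TTTC, any 2 bases, TTTC where it lies on the opposite strand.
Isg15, chr4:156200769-156201068, minus strand: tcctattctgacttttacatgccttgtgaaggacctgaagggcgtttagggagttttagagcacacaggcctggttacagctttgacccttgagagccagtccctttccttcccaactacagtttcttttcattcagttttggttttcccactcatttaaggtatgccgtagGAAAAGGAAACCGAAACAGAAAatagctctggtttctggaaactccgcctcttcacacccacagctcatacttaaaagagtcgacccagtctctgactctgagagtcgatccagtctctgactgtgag
Ifit1, chr19:34640639-34640938, plus strand: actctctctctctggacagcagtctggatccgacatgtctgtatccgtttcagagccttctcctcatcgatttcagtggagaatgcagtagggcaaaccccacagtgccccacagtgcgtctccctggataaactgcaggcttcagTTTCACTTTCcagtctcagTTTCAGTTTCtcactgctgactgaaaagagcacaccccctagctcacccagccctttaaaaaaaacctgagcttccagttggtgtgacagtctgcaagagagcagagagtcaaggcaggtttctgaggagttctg
Ifit3, chr19:34583279-34583578, plus strand: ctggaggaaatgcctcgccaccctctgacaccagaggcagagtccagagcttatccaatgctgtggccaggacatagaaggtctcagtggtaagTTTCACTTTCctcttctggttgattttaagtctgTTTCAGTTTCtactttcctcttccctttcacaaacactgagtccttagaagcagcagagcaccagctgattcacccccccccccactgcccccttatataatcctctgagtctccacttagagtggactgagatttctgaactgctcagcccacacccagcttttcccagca
Ifit3b, chr19:34607707-34608006, plus strand: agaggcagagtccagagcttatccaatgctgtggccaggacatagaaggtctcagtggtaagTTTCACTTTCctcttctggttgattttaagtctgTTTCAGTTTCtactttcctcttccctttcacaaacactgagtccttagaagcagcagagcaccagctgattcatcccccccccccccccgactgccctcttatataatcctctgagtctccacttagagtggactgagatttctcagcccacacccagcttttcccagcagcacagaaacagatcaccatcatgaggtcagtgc
Rsad2, chr12:26456403-26456702, minus strand: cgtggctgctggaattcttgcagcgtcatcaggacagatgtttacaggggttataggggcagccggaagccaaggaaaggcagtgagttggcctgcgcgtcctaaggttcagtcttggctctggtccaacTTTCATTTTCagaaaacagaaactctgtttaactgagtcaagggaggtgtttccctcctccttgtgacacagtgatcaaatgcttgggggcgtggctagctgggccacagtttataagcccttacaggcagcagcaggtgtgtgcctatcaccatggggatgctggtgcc
Oas3, chr5:120777610-120777909, minus strand: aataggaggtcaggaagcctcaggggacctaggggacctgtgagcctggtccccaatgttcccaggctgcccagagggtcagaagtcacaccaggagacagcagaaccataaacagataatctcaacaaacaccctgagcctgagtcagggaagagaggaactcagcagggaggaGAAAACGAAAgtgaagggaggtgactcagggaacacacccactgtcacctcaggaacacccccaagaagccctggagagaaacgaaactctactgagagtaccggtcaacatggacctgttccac

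In Isg15 3 overlapping matches form 1 run that begins 78 bases before the start. Ifit1 held 2 matches, beginning 104 and 85 bases before the start, and Rsad2 1 at 120 bases. The windows of Ifit3 and Ifit3b align over 260 positions, gaps left out, of which 258 (99.2%) are identical. Their 2 matches begin 156 and 122 bases before the start of Ifit3 and 188 and 154 bases before that of Ifit3b. Matches of the other members include the sensors Ifih1 and Ddx58, where they begin 32 and 2 bases after the start, and the membrane proteins Bst2 and Ifitm3. Slfn2, the most abundant member, had no match in its window. The 13 members with a match had a median level of 60.2 TPM and the 17 without 87.9 TPM.

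**Figure D1:**
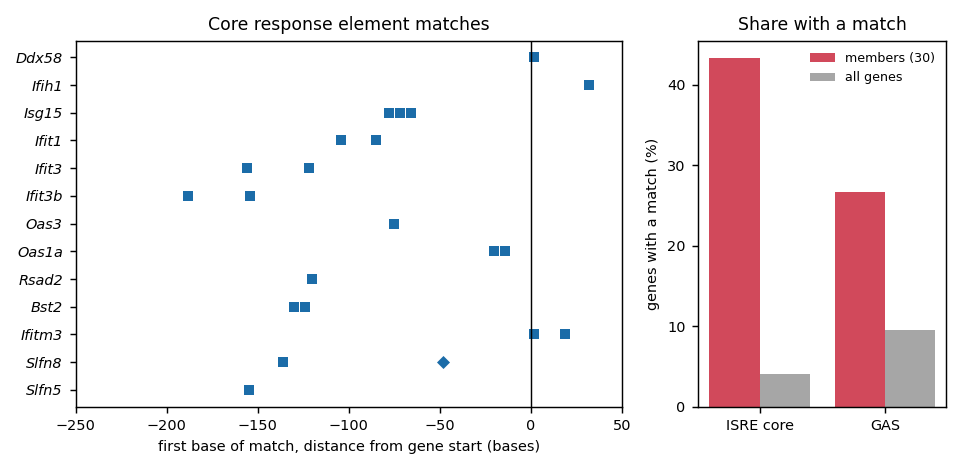
Left, distance in bases from the gene start to the first base of each match to the ISRE core in the 13 member genes that hold one (diamond, second annotated start of Slfn8). Right, percent of genes with a match, members (30 with a window) beside all genes with a window (27025): 43.3% and 3.99% for the ISRE core, 26.7% and 9.55% for the gamma-activated sequence (GAS).

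All 39 members were present at 1 TPM or more in each of the 4 libraries, against 43.7% of 21764 protein coding genes. Since the members were chosen with earlier results of these data known, this count is a description. Outside the list, 34 of 40 other interferon-stimulated genes and 9 of 15 paralogs of members reached 1 TPM in every library. The median of the members' mean levels was 87.9 TPM. In bulk RNA, fewer cells that express a gene and less RNA per cell cannot be told apart. Of the 39, 19 averaged 100 TPM or more, 15 lay between 10 and 100 TPM, and 5 lay below 10 TPM (Mx2, Herc6, Ifitm3, Ifi44 and Mx1). Together they took 0.644 ± 0.0171% of all counts (SD, n = 4) and 5581 ± 169 TPM. The 5 most abundant, Slfn2, Parp14, Isg15, Slfn1 and Parp9, made up 38.1 ± 1.71% of that sum. In replicates 1 to 4 the members' share of the counts was 0.634%, 0.666%, 0.627% and 0.648%. The 95% Wilson intervals, which cover counting error only, were 0.632% to 0.637%, 0.663% to 0.668%, 0.624% to 0.630% and 0.645% to 0.651%, so those of the 4 libraries did not overlap.

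**Figure D2:**
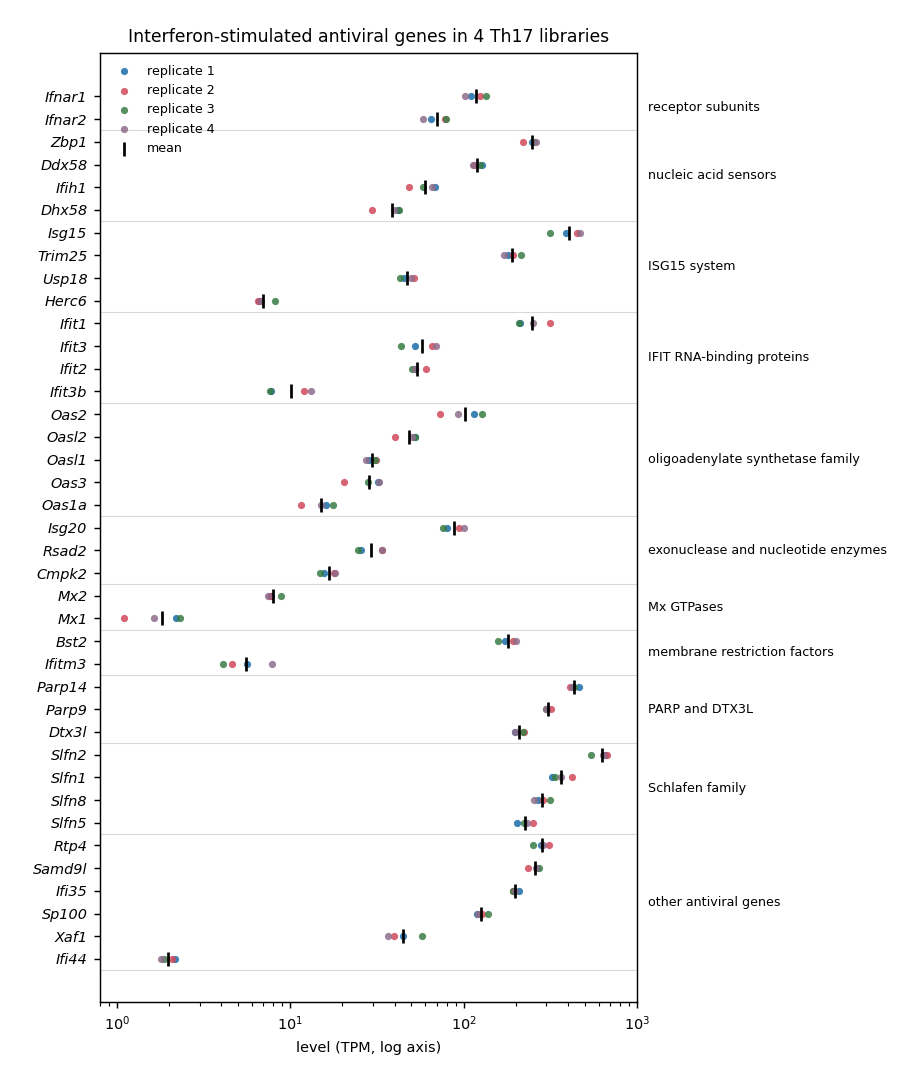
Level of each of the 39 members in TPM (log axis) in replicates 1 to 4 (coloured points) with the mean (black bar), grouped by role. Means run from 1.81 TPM (Mx1) to 625 TPM (Slfn2).

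The members stand in clusters in the genome: 22 of 39 lie within 200 kb of another member, in 8 loci. Many were listed as gene families, and the same share was not computed for other genes. The IFIT locus (Ifit2, Ifit3, Ifit3b and Ifit1) spans chr19:34550694-34650009, the Schlafen locus (Slfn5, Slfn8, Slfn2 and Slfn1) chr11:82951349-83122670, and the locus of Parp14, Dtx3l and Parp9 chr16:35832874-35972605, in mm10 with the exon models of GENCODE M13. Neighbours differed in level by very different factors. In the Schlafen locus the means ran from 227 to 625 TPM, and in the IFIT locus from 10.2 to 247 TPM.

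Both receptor chains were expressed. Ifnar1, the chain that holds Tyk2, stood at 111, 125, 135 and 102 TPM in replicates 1, 2, 3 and 4. Ifnar2, the chain that binds Jak1 and Stat2, stood at 65.2, 78.5, 78.9 and 58.0 TPM. Both genes were higher in replicates 2 and 3 than in replicates 1 and 4. Ifnar1 exceeded Ifnar2 in every library, by 0.75 ± 0.06 on the log2(TPM + 1) scale (1.69 ± 0.0706 times). About 8.50% of the distinct 31-base words of Ifnar2 transcripts also occur in Gm21970, which overlaps it on the same strand, and fragments there were not counted.

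In all, 10 such pairs were compared within libraries, each by flipping the signs of its 4 differences in every way (an exact permutation test, two-sided). Every pair kept 1 direction in 4 of 4 libraries. Each therefore had p = 0.13 in this exact permutation test, also after adjustment over the pairs, the smallest value 4 libraries can give, and no pair could pass 0.05.

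Among the sensors Zbp1, which recognises Z-form nucleic acid and can start necroptosis, was highest, at 248, 221, 254 and 262 TPM in replicates 1 to 4. Ddx58, which encodes the RNA helicase RIG-I, stood at 127, 115, 124 and 112 TPM. Ifih1, which encodes MDA5, the sensor of long double-stranded RNA, stood at 68.5, 48.3, 58.2 and 65.6 TPM, and Dhx58, which encodes their partner LGP2, at 41.8, 29.7, 42.4 and 39.5 TPM. Zbp1, Ifih1 and Dhx58 were lowest in replicate 2 on this scale. Ddx58 exceeded Ifih1 by 0.99 ± 0.21 on the log2(TPM + 1) scale.

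The ISG15 system attaches a ubiquitin-like protein to others. Isg15, the modifier itself, stood at 388, 453, 315 and 467 TPM, lowest in replicate 3. Usp18, the protease that removes it and that also blocks signalling at Ifnar2, stood at 45.1, 51.7, 42.8 and 49.9 TPM, with the same library lowest. Herc6, the main ligase for the modifier in mouse, stood at 6.99 ± 0.755 TPM, and Trim25, a ubiquitin ligase that acts on RIG-I, at 190 ± 18.3 TPM (SD, n = 4). Isg15 shares 12.8% of its 31-base words with other genes and Herc6 13.8%. Herc6 overlaps Gm45193 over 13.7% of its exon length on the same strand, so fragments there went uncounted.

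The IFIT proteins bind viral RNA and block its translation. Ifit1 stood at 212, 315, 208 and 251 TPM, Ifit2 at 52.1, 60.6, 50.6 and 52.5 TPM, Ifit3 at 52.5, 65.8, 43.5 and 69.3 TPM and Ifit3b at 7.70, 12.1, 7.66 and 13.2 TPM in replicates 1 to 4. All 4 were higher in replicates 2 and 4 than in replicates 1 and 3. Ifit1 exceeded Ifit2 by 2.15 ± 0.17 on the log2(TPM + 1) scale. Ifit3 exceeded Ifit3b by 2.41 ± 0.14 on that scale (5.80 ± 0.702 times), and their promoter windows are 99.2% identical. The level of each of that pair is uncertain, since 61.8% of the 31-base words of Ifit3 occur in Ifit3b, 54.1% of those of Ifit3b occur in Ifit3, and fragments with several alignments were not counted.

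The oligoadenylate synthetases make 2-5A, a second messenger of the antiviral response. Oas2 stood at 115, 73.4, 127 and 93.2 TPM and Oas3 at 32.2, 20.4, 28.1 and 32.5 TPM, and both were lowest in replicate 2. Oas1a stood at 15.05 ± 2.61 TPM (SD, n = 4), also lowest in replicate 2. It shares 68.7% of its 31-base words with Oas1g, and fragments with several alignments were not counted, so the level of Oas1a is uncertain. Oas1g, with 55.05% of its own words shared with other genes, had 0 counts. Oasl2 stood at 48.7 ± 5.77 TPM and Oasl1, which lacks synthetase activity, at 29.4 ± 1.97 TPM. Oasl2 exceeded Oasl1 by 0.70 ± 0.24, and the difference of Oas3 from Oas2 was -1.81 ± 0.27, on the log2(TPM + 1) scale.

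Rsad2, which encodes viperin, an enzyme that turns CTP into a chain terminator for viral polymerases, stood at 25.6, 33.7, 24.6 and 33.6 TPM. Cmpk2, its neighbour on chromosome 12 and a nucleotide kinase, stood at 15.7, 17.9, 14.8 and 18.1 TPM. Both were higher in replicates 2 and 4 than in the other libraries. Cmpk2 lay below Rsad2, with a difference of -0.78 ± 0.11 on the log2(TPM + 1) scale. Isg20, a ribonuclease of viral RNA, stood at 79.8, 94.5, 76.3 and 101 TPM and was likewise high in replicates 2 and 4 and lowest in replicate 3.

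The Mx GTPases, which trap viral capsids and polymerases, were among the lowest members. Mx1 stood at 2.19, 1.10, 2.32 and 1.63 TPM on 243 counts in all, and Mx2 at 7.71, 7.67, 8.84 and 7.45 TPM. C57BL/6 mice are known to carry a defective Mx1 allele that lacks coding exons, and Mx2 is annotated as a polymorphic pseudogene. Whether either bears on these levels was not tested. Mx1 lay below Mx2, with a difference of -1.69 ± 0.26 on the log2(TPM + 1) scale. The difference was -2.12 with a pseudocount of 0.1.

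Of the membrane proteins, Bst2 (tetherin, which holds budding virus at the cell surface) stood at 173, 193, 158 and 201 TPM. Ifitm3, which blocks fusion of virus in endosomes, stood at 5.61, 4.58, 4.09 and 7.83 TPM on 140 counts in all, with 20.5% of its 31-base words shared with other genes. Its relatives Ifitm1 and Ifitm2, from outside the list of members, had 6 and 8 counts over the 4 libraries.

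Parp14, an ADP-ribosyltransferase, stood at 432 ± 21.0 TPM, Parp9 at 305 ± 10.3 TPM and Dtx3l, the ubiquitin ligase that works in a complex with Parp9, at 209 ± 13.9 TPM (SD, n = 4). The highest library exceeded the lowest by at most 1.205 times in each, after normalization. Dtx3l lay below Parp9, with a difference of -0.54 ± 0.08 on the log2(TPM + 1) scale. The 2 genes start head to head and overlap on opposite strands, and the strand setting separates their counts.

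The Schlafen family, named for its role in restraining thymocyte and T cell growth, held the most abundant member. Slfn2, which keeps mouse T cells quiescent, stood at 650.2, 671, 541 and 637 TPM in replicates 1 to 4. Slfn1 stood at 363 ± 43.5 TPM, Slfn8 at 282 ± 26.5 TPM and Slfn5 at 227 ± 20.8 TPM (SD, n = 4). Slfn8 shares 26.8% of its 31-base words with other genes, most of them with Slfn9, and Slfn2 10.3%, and shared fragments were not counted. All 4 lay above the median of the members, and Slfn2 exceeded Slfn1 by 0.78 ± 0.15 on the log2(TPM + 1) scale.

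Of the remaining members, Rtp4, a receptor transporter protein that restricts flaviviruses, stood at 282 ± 24.3 TPM and Samd9l, a restriction factor of poxviruses, at 259 ± 16.6 TPM. Ifi35 stood at 198 ± 8.14 TPM, Sp100, a component of nuclear bodies, at 127 ± 8.12 TPM and Xaf1, an antagonist of the apoptosis inhibitor XIAP, at 44.6 ± 9.21 TPM (SD, n = 4). Ifi44 stood at 1.98 ± 0.174 TPM and was, with Mx1, the lowest of the 39. Rtp4 overlaps Gm45338 over 13.9% of its exon length.

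The question of whether any member differed between the libraries by more than genes of like abundance was asked with edgeR, in a fit with an intercept only over 11567 genes that passed its expression filter, all 39 members included. None of the 39 varied beyond the abundance trend at an adjusted p under 0.05, against 0.813% of genes tested. With the size factors and dispersion trend of DESeq2 the count was also 0, with 7 members at an unadjusted p under 0.05. At an unadjusted p under 0.05 there were 6 of 39 (15.4%), Isg15, Ifit3, Ifit1, Oas3, Ifit3b and Rsad2, against 5.98% of genes tested. The lowest adjusted p of a member was 0.345 (Isg15, edgeR with Benjamini-Hochberg adjustment). A p above the threshold does not show that levels were equal.

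The size of the differences was close to that of all genes tested, but the 2 sets were not matched for abundance. Isg20, the median member by level, stood above 80.7% of protein coding genes with a mean of 1 TPM or more. A ratio of 2.6 or more was found in 3.68% of genes tested and in 0 members. The ratio of the highest to the lowest library, in CPM (counts scaled to the library total) after TMM normalization, was 1.05 (Mx2) to 2.18 (Ifitm3) with a median of 1.36, against a median of 1.33 over all genes tested. It reached 1.5 in 10 of 39 members (25.6%), against 28.2% of genes tested. Without replicate 2 or without replicate 3 it did so in 6. Those 10 were Isg15, Ifit1, Ifit3, Ifit3b, Rsad2, Isg20, Oas2, Oas3, Mx1 and Ifitm3.

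**Figure D3:**
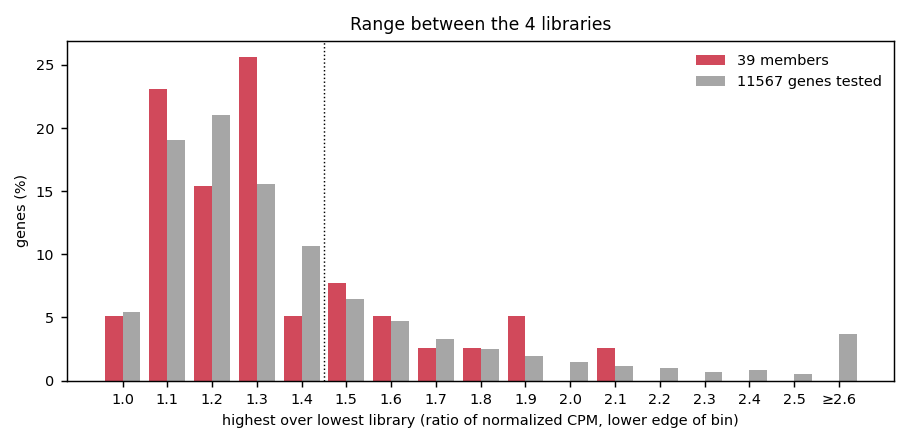
Ratio of the highest to the lowest of the 4 libraries in normalized CPM (lower edge of each bin), as percent of the 39 members (red, left) and of the 11567 genes tested (grey, right). The dotted line marks 1.5, which 25.6% of the members and 28.2% of genes tested reached.

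Which library was high was less evenly spread than over all genes. In normalized CPM the highest pair of libraries was replicates 2 and 4 in 18 of 39 members (46.2%), against 20.2% of genes tested. This pattern was noticed in these data and is a description. Replicates 2 and 4 lie on opposite sides of the split by sex-linked genes, and a part of sex in the pattern was not tested. The 18 held all 4 IFIT genes, Isg15, Usp18, Rsad2, Cmpk2, Isg20, Bst2, Slfn1, Slfn2, Slfn5, Rtp4, Parp9, Dtx3l, Oasl1 and Sp100. On the TPM scale the pattern did not hold for all of them. There Slfn2 and Parp9 were highest in replicates 1 and 2, and Dtx3l, Oasl1 and Sp100 in replicates 2 and 3. Even in normalized CPM, Dtx3l and Oasl1 lay below their own mean in replicate 4 (log2 deviations -0.0086 and -0.040). Scaled by the library total in place of TMM, the count of members with this pattern was 15 of 39. The other pairs were replicates 1 and 4 in 9 members (23.1%, against 20.7% of genes tested), 2 and 3 in 5 (12.8%, against 20.3%), 1 and 3 in 4 (10.3%, against 20.9%), 1 and 2 in 2 (5.13%, against 9.71%) and 3 and 4 in 1 (2.56%, against 8.21%). The highest single library was replicate 1 in 6 members (15.4%, against 16.7% of genes tested), 2 in 15 (38.5%, against 27.6%), 3 in 5 (12.8%, against 30.3%) and 4 in 13 (33.3%, against 25.4%). Replicate 3 was the lowest library in 19 of 39 members (48.7%), against 31.9% of genes tested, and replicates 1, 2 and 4 in 15.4%, 23.1% and 12.8%, against 18.3%, 24.6% and 25.2%. Over the 39 members the median deviation from the mean of the 4 libraries, in log2 normalized CPM, was -0.04, 0.12, -0.11 and 0.09 in replicates 1 to 4, against values from -0.0035 to 0.0070 over all genes tested.

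By role, the median deviation of the IFIT genes was -0.15, 0.30, -0.41 and 0.24 in replicates 1 to 4, and that of Isg20, Rsad2 and Cmpk2 was -0.12, 0.16, -0.31 and 0.28. The synthetase family ran otherwise, with medians of 0.12, -0.32, -0.01 and 0.08. Its genes were lowest in replicate 2 except Oasl1, which was highest there (-0.05, 0.14, -0.05 and -0.04 in replicates 1 to 4). Mx1, at 0.34, -0.61, 0.30 and -0.02, was likewise lowest in replicate 2. The receptor chains were highest in replicates 2 and 3. Differences between these roles were not tested.

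Gene length moved with this pattern. The 18 members that were highest in replicates 2 and 4 had a median exon length of 2632 bases and the other 21 members 4689 bases. Over all genes tested the lengths were 2820 bases for genes with that pattern and 4309.5 bases for the rest. The part of length in the result was not tested. The ISRE core was found in 7 of 15 members with that pattern that had a promoter window and in 6 of 15 of the others. The median ratio of the highest to the lowest library was 1.56 in the 13 members with the core and 1.26 in the 17 without. That difference was not tested. The 13 include Ifit3 and Ifit3b, whose promoters are nearly the same, and Ifitm3, which rests on 140 counts. The 17 include Ifi44, which rests on 467 counts.

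**Figure D4:**
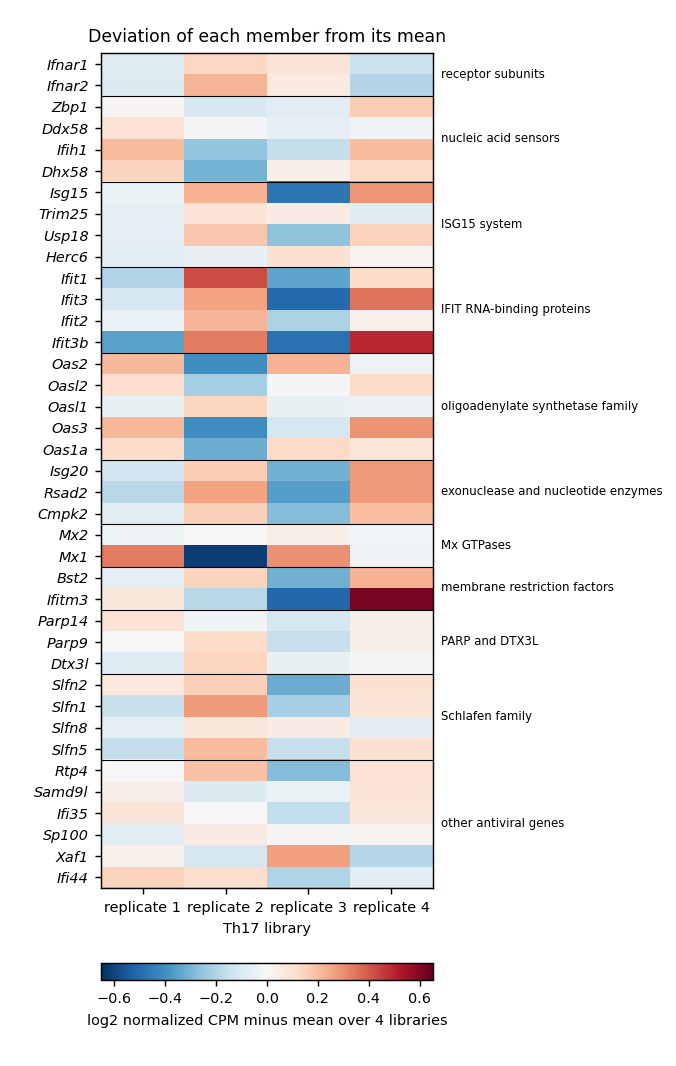
Deviation of each member from its mean over the 4 libraries (log2 normalized CPM, colour), with members in rows grouped by role and replicates 1 to 4 in columns. IFIT genes, Isg15, Rsad2 and Cmpk2 were high in replicates 2 and 4 and low in replicate 3, and Oas2, Oas3 and Mx1 were lowest in replicate 2.

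The rest of the interferon pathway was read from 9 lists with 116 genes found in the files. The ligands were nearly silent. Of 20 genes for type I and III interferons 19 had 0 counts in all libraries, among them Ifnb1, which shares no 31-base word with another gene; 0 counts allow up to 0.116 CPM in the shallowest library (3 counts). Ifnab had 41 counts (1.05 ± 0.325 TPM). Several alpha interferon genes are near copies, with up to 88.3% of 31-base words shared (Ifna1), so fragments of these could have gone uncounted.

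The transducers were all expressed, 5 of 5 above 1 TPM. Jak1 stood at 683 ± 18.3 TPM, Irf9 at 191 ± 25.98 TPM, Stat2 at 113 ± 27.6 TPM and Tyk2 at 29.8 ± 4.13 TPM (SD, n = 4). The receptor chains for interferon gamma stood above those for type I interferon, with Ifngr1 at 255 ± 28.7 TPM and Ifngr2 at 183 ± 16.3 TPM. Il10rb, a chain of the interferon lambda and interleukin 10 receptors, stood at 9.34 ± 0.756 TPM, while the interferon lambda receptor gene Ifnlr1 had 0 counts. The highest level of a gene in the 9 lists was that of a negative regulator. Socs1, which inhibits Janus kinases, stood at 1883 ± 196 TPM, Socs3 at 908 ± 138 TPM and the phosphatase genes Ptpn1 and Ptpn2 at 451 ± 32.2 and 134 ± 2.35 TPM, and the lowest of 7, Pias1, at 46.9 ± 2.68 TPM.

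Of the interferon regulatory factors 6 of 6 reached 1 TPM, from Irf1 at 878 ± 199.7 TPM, Irf7, the master factor of alpha interferon induction, at 239 ± 13.9 TPM, Irf8 at 222 ± 16.95 TPM and Irf3 at 116 ± 14.2 TPM to Irf5 at 1.29 ± 0.216 TPM. Of 12 sensors and adaptors for interferon induction 10 did so. Myd88 stood at 284 ± 16.9 TPM, Tmem173, which encodes STING, at 162 ± 11.3 TPM, and the kinase genes Tbk1 and Ikbke at 104 ± 17.8 and 64.1 ± 13.4 TPM. The endosomal receptor genes Tlr3 and Tlr9 fell short, at 0.491 ± 0.292 TPM and on 2 counts.

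Other interferon-stimulated genes were mostly present, 34 of 40 at a mean of 1 TPM or more, with a median of 54.8 TPM. Ly6a stood at 1271 ± 232 TPM, Ifi27l2a at 798 ± 112 TPM, Helz2 at 622 ± 94.9 TPM and Samhd1, which depletes nucleotides, at 291 ± 14.4 TPM, whereas Ifi205 and Ifi44l had 0 counts. Of the paralogs of members 9 of 15 did so, led by Ifit1bl1 at 64.2 ± 5.00 TPM, Herc3 at 43.7 ± 4.07 TPM, Oas1b at 26.03 ± 11.3 TPM and Slfn3 at 12.4 ± 1.11 TPM. In the interferon gamma list Igtp stood at 1124 ± 54.8 TPM, Irgm1 at 509 ± 48.9 TPM, Cd274 at 466 ± 42.0 TPM and Gbp2 at 335 ± 44.6 TPM, and Ciita, Cxcl9 and Nos2 rested on 6, 21 and 6 counts.

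None of the 80 pathway genes tested varied between libraries beyond the trend with edgeR, against 0.813% of genes tested, and 8 had an unadjusted p under 0.05, against 5.98% of genes tested. The lowest adjusted p was that of Uba7, the activating enzyme of Isg15 (edgeR, adjusted p = 0.0653). Uba7 stood at 64.5, 55.3, 108 and 47.6 TPM in replicates 1 to 4 and was highest in replicate 3.

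**Figure D5:**
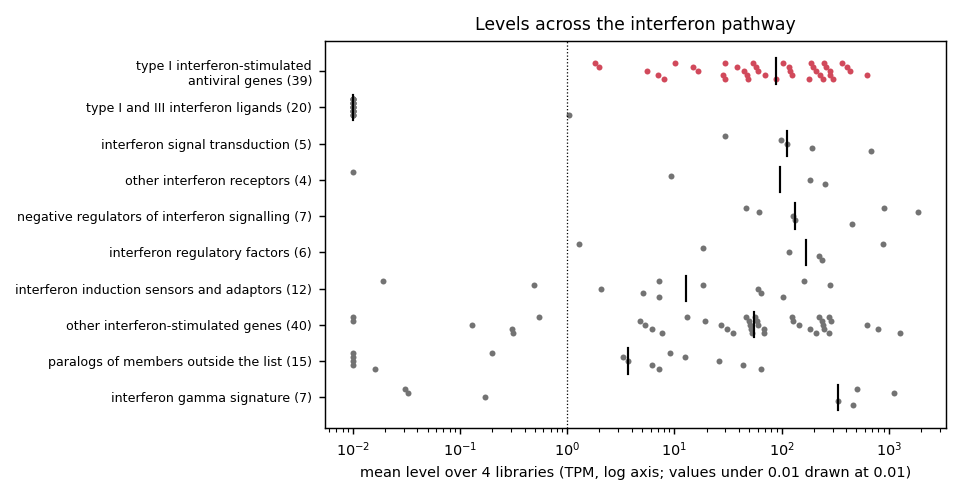
Mean level over the 4 libraries in TPM (log axis, values under 0.01 drawn at 0.01) of each gene, the 39 members in red above the 9 pathway lists in grey; black bars are medians and the dotted line is 1 TPM. The median member stood at 87.9 TPM, and 19 of 20 interferon ligand genes had 0 counts.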

How the data were processed

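RNA was sequenced from 4 Th17 libraries of 1 group. Deposited were raw counts of fragments for each gene, which the authors obtained from featureCounts 1.4.6-p4 and GENCODE M13 exons, read pairs counted as fragments with both ends mapped and reverse strandedness (option 2), per the file headers. The recorded command did not ask for fragments that align to several places or genes, so these went uncounted. The aligner version was not given in the sources used here. Samples took their replicate numbers from the labels.

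Symbols were matched by identifier (50376 of 50600). TPM was computed here from the counts and the union exon lengths in the same files. Variation between libraries was tested with edgeR 4.0.16 in R 4.3.3: expression filter, TMM, intercept only, the deviance given the trended dispersion referred to a chi-square with 3 degrees of freedom, and Benjamini-Hochberg adjustment over all genes tested. With 1 group there is no coefficient for a quasi-likelihood test. The step was tested on simulated counts. DESeq2 1.42.0 was an alternative, and others are in the closing section. Shared sequence is the percent of distinct 31-base words of a gene's GENCODE M21 transcripts found in another gene. Promoter windows are from RefSeq (GRCm38.p6).

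Pairs were compared with an exact sign-flip permutation test on log2(TPM + 1). Library totals of 25847970 to 40652146 counts set the precision. Named were all members and, of each pathway list, the 4 highest and up to 2 lowest by mean TPM, and other genes where a result turns on them; some genes the rule names are not reported here. Members and lists were chosen with earlier results of these data known. The rest was done in Python 3.11.15 with scipy 1.17.1, pandas 2.3.3, numpy 2.4.6 and, for figures, matplotlib 3.10.9.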

Additional observations from a re-analysis of the deposited data

Results flagged for a closer look

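Among 39 members and their summed level, 40 sets of 4 values in all, 1 library lay far from the rest by Dixon's test. Herc6, the main Isg15 ligase of mouse, stood at 8.11 TPM in replicate 3, against 6.51 to 6.74 TPM in the other libraries. In normalized CPM its values were 18.0, 18.3, 20.3 and 19.2 in replicates 1 to 4, and the gap of replicate 3 to the next library was 0.461 of the range, against 0.857 in TPM. The library was therefore not marked on that scale, an alternative chosen after seeing the data. Chance alone marks about 1 in 20 such sets.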

How the results depend on the processing

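The count of members at 1 TPM or more in every library was 39 under each alternative tried except FPKM, where 37 reached a value of 1. Under each alternative tried 0 members varied beyond the trend with edgeR or DESeq2, and all 10 pair differences kept their direction. The lowest adjusted p of a member over all settings was 0.196 (edgeR, common dispersion). The number of all genes that varied was 94, but 256 with a common dispersion and 35 to 60 without 1 replicate, where fewer libraries are compared. The number of members with a 1.5-fold range was 10, and 6 to 9 without 1 replicate, where a range over 3 libraries cannot exceed that over 4 for the same scaling. The median deviation of replicate 2 was 0.12, and 0.05 without replicate 3; that of replicate 1 was -0.04, and 0.01 without replicate 4; that of replicate 4 was 0.09, and 0.04 without replicate 3 or 0.05 with library totals. That of replicate 3 was -0.11, and -0.07 without replicate 1 or -0.05 with library totals. With protein coding genes alone in the TPM denominator the members' levels were 1.07 times as high. The count of members highest in replicates 2 and 4 and its alternatives were chosen after seeing the data. No paired analysis was possible because the study has 1 group. Depth limits Mx1, Ifitm3 and Ifi44, which rest on 243, 140 and 467 counts.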
